A study of Homo sapiens with 2 samples.

Results

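The genes described here are 10 negative regulators of receptor tyrosine kinase and MAP kinase signalling: the MAP kinase phosphatase genes DUSP1, DUSP4, DUSP5, DUSP6 and DUSP10, the Sprouty genes SPRY1, SPRY2 and SPRY4, and the SPRED genes SPRED1 and SPRED2. They were chosen by name, with earlier results of these data known. Every array probe set annotated to exactly 1 of them was used, which gave 29 probe sets for 10 of the 18132 genes with such a probe set. The cells were HCT116, an epithelial line from a human colorectal carcinoma that carries an activating RAS mutation. The shNC culture had received a lentivirus with a negative-control shRNA, and the shRAP1 culture a lentivirus with the shRNA called sh-RAP1-4#, both at a multiplicity of infection of 20 for 72 h. Each group was 1 culture on 1 array, so no difference below has a test or a replicate check. The control was itself infected, the knockdown rests on a single shRNA sequence, and the stated purpose was to see how RAP1 acts on colorectal cancer cells.

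MAP kinases are switched on by phosphorylation of a threonine and a tyrosine, and the dual-specificity phosphatases switch them off by removing both phosphates. Sprouty and SPRED proteins act further upstream, between activated growth factor receptors and RAF. Many of these genes are transcribed in response to ERK activity itself, so their transcripts are widely read as a gauge of ERK output as well as being its brakes.

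TERF2IP, the telomere-bound protein also called RAP1, had an intensity of 1311 in shNC and 624 in shRAP1, 47.6% of the control, on a probe set of the _s_at kind, a suffix given where the probes are shared between transcripts. The small GTPase genes that share the name RAP1 differed less, though each probe set of theirs that was examined was lower. RAP1A stood at 88.0%, 86.7% and 85.5% of the control and RAP1B at 93.3% and 89.9%. All 7 epithelial markers examined, among them EPCAM, KRT8 and CDH1, lay between 1098 and 8580 on both arrays. Of 5 colonic markers only CDX2 (183 and 191) stood above the floor defined below. Of the markers of other cell types, 0 of 5 fibroblast, 2 of 4 endothelial and 1 of 4 leukocyte genes passed it, and PTPRC, the defining leukocyte marker, stood at 11.4 and 9.25. Across 10437 measured genes the differences had a median of 0.010 and an SD of 0.16 on the log2 scale. In RNA from a whole culture, fewer cells that express a gene and less of its RNA per cell cannot be told apart.

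Intensities are the linear values of a probe set, and every difference is shRAP1 minus shNC of their log2 values. A probe set was taken as past the floor if its higher value reached the median of all values, 78.0 (6.29 on the log2 scale). The brightest probe set past the floor stands for its gene. Brightness also depends on the probes, so levels were not compared between genes. Of the 29 probe sets of the 10 genes, 24 passed the floor and 5 did not, and all 10 genes had at least 1 that passed.

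DUSP4 stood apart from the other 9 genes, at 149.7% of the control value, and DUSP5 was higher by a smaller amount. SPRY2 was lower, and the other 7 genes lay within 0.1 of 0 on the log2 scale. Among all genes measured, 52.3% lay within 0.1 of 0. Of the 10 genes 6 were higher and 4 lower, against 53.2% higher and 46.8% lower among all genes, and their median was 0.022 against 0.010 for all genes. No gene of the 10 reached 1.5-fold in either direction, a size reached upward by 0.211% of all genes and downward by 0.172%. None reached 2-fold, a size reached by 0.0192% of all genes upward and by 0.0192% downward. At a smaller size, 0.32 on the log2 scale, 1 of the 10, DUSP4, was higher and 0 were lower, against 2.49% and 1.92% of all genes. With a gene taken as the median of its probe sets past the floor, the median of the 10 was 0.11 against 0.0058 for all genes. In that setting DUSP10 (0.11) and SPRY1 (0.16) include probe sets that passed the floor only through the shRAP1 array, where they were higher. This median thus depends on the floor rule. The larger differences by brightest probe set were those of DUSP4, DUSP5 and SPRY2, each of which has only 1 probe set.

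**Figure D1:**
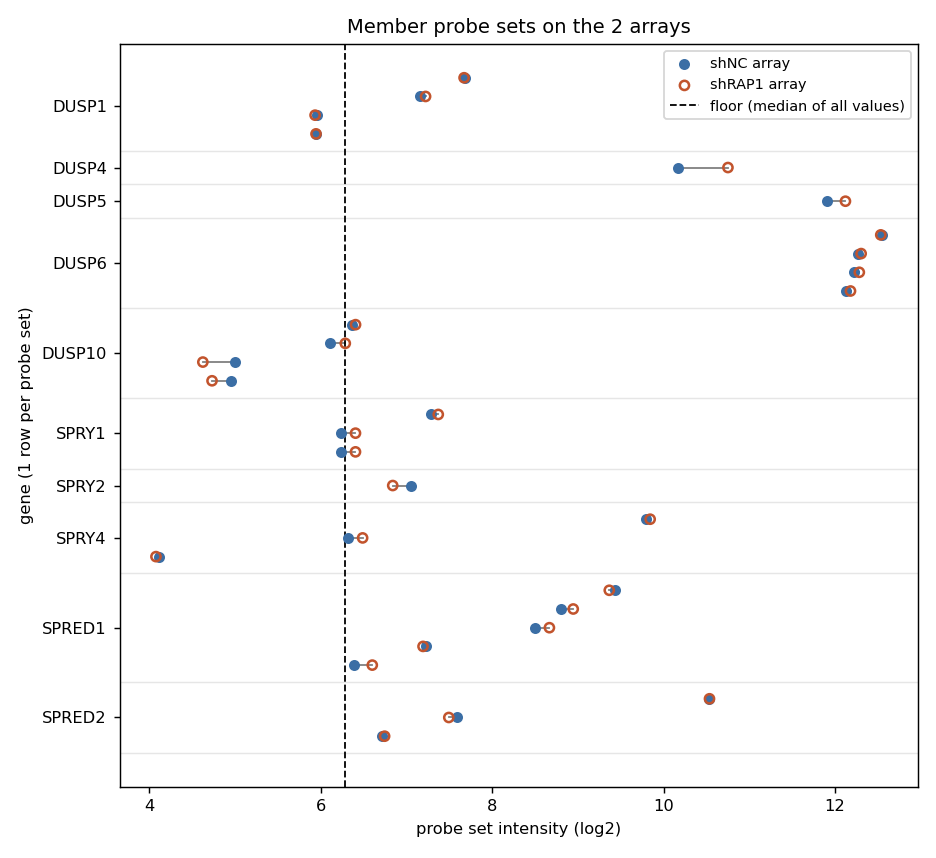
Intensity on the log2 scale (x axis) of every probe set of the 10 genes (rows grouped by gene), with filled points for the shNC array and open points for the shRAP1 array. The dashed line is the floor at 6.29. The points of DUSP4 lie clearly apart, those of DUSP6 and DUSP1 almost coincide, and the 5 probe sets with both points left of the line did not pass the floor.

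Bases before the annotated start site are shown for 3 of the genes, which were picked by their differences. DUSP1 and DUSP6 were taken because their probe sets past the floor all lay within 0.1 of 0. SPRED2 met the same rule and is not shown. SPRY2 was taken for the lowest difference, which rests on 1 probe set of low intensity. The sequences are from RefSeq on GRCh38.p14, run 5′ to 3′ on the gene's strand and end at the base before the start site. Capitals mark matches to the motifs listed after them.
DUSP1, chr5:172771196-172771345, minus strand: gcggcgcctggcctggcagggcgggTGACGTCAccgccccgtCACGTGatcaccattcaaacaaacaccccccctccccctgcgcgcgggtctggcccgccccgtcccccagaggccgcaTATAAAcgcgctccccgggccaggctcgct
DUSP6, chr12:89352502-89352651, minus strand: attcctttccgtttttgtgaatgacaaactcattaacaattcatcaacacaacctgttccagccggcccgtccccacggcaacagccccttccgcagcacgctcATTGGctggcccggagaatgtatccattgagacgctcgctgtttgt
SPRY2, chr13:80341127-80341276, minus strand: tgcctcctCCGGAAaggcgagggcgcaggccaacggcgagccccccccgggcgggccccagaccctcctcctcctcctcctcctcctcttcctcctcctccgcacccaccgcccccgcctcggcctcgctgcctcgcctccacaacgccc

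A search of both strands covered 7 motifs. They were the cyclic AMP response element, spelled TGACGTCA, the AP-1 site, spelled TGAGTCA, and the E-box, spelled CACGTG. Next came the core of ETS sites, searched as CCGGAA. After it came the TATA element, whose letters were TATAAA. The CCAAT box, by the letters of its name, and the CArG box bound by SRF were the last. The RefSeq table held 13 windows, from 250 bases before to 50 after a start site, for 8 of the 10 genes, not for DUSP4 or DUSP5. The cyclic AMP response element was in 1 of the 13, that of DUSP1, and in 1.85% of all 35116 windows. In the same DUSP1 stretch lay the 1 E-box of the 13 (7.26% of all windows) and 1 of their 2 TATA elements (11.5%), the other being in SPRED2. The ETS core was in 2 of the 13, 1 of SPRY1 and 1 of SPRY2, against 17.2% of all windows. AP-1 sites lay in 1 window of SPRED2 (4.95% of all), the CArG box in none (1.29%) and the CCAAT box in 3 (34.6%), among them that of DUSP6. No match overlapped a match to another motif. GC content of the 13 windows ran from 39.3% to 76.3% with a median of 60.0%, against 58.7% over all windows. These letters describe the windows, and whether they bear on the differences was not tested.

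DUSP4, a nuclear phosphatase that acts on ERK, JNK and p38, had an intensity of 1151 in shNC and 1724 in shRAP1. The value was thus higher after knockdown, far above the floor on both arrays. Its difference of 0.58 was just short of the 1.5-fold line, and 22 of the 10437 genes had a higher one. The 500 genes nearest to DUSP4 in mean value had differences with an SD of 0.14, and the DUSP4 difference was 4.09 times that SD. Such an SD measures how genes scatter between the arrays, not how cultures do.

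DUSP5, a nuclear phosphatase specific for ERK, had an intensity of 3830.0 in shNC and 4457 in shRAP1. This was 116% of the control, a difference of 0.22. It was 2.06 times the SD of genes of like mean, which was 0.11, and 8.14% of all genes had a higher difference. DUSP5 was therefore higher in the same direction as DUSP4 but at a size that many genes on the array shared.

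DUSP6, the cytoplasmic phosphatase specific for ERK, was measured by 4 probe sets that all lay far above the floor. The brightest read 5996 in shNC and 5930.1 in shRAP1, a difference of −0.016. The second read 4943 and 5060.4 (0.034), the third 4779 and 4986 (0.061) and the last 4469.9 and 4643 (0.055). All 4 thus lay within a range of 0.077, and a range of 0.1 or less was found in 15% of all genes that 4 or more probe sets past the floor measured. The brightest was 0.16 times the SD of genes of like mean in size. DUSP6 is a transcript often read as a gauge of ERK signalling, and no probe set of it differed by more than 0.061.

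DUSP1, an immediate early gene whose product acts mainly on p38 and JNK, had 2 probe sets past the floor and 2 below it. The brighter pair read 205 in shNC and 204 in shRAP1 (−0.0075), and 143 and 149.6 (0.068). Both below the floor, at 62.0 and 61.2 and at 61.6 and 61.7, also lay close to 0, with differences of −0.020 and 0.0020. All 4 differences of DUSP1 were smaller than the SD of genes of like mean, 0.17.

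DUSP10, a phosphatase that prefers JNK and p38, was dim. Its brightest probe set read 82.6 in shNC and 84.9 in shRAP1, a difference of 0.039. A second, with a name ending in _x_at, read 69.2 and 78.1 (0.17) and passed the floor through its shRAP1 value alone. The 2 below the floor went the other way, from 31.1 to 26.6 (−0.23) and from 32.0 to 24.7 (−0.37). With probe sets of both signs near or below the floor, these arrays give no direction for DUSP10.

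**Figure D2:**
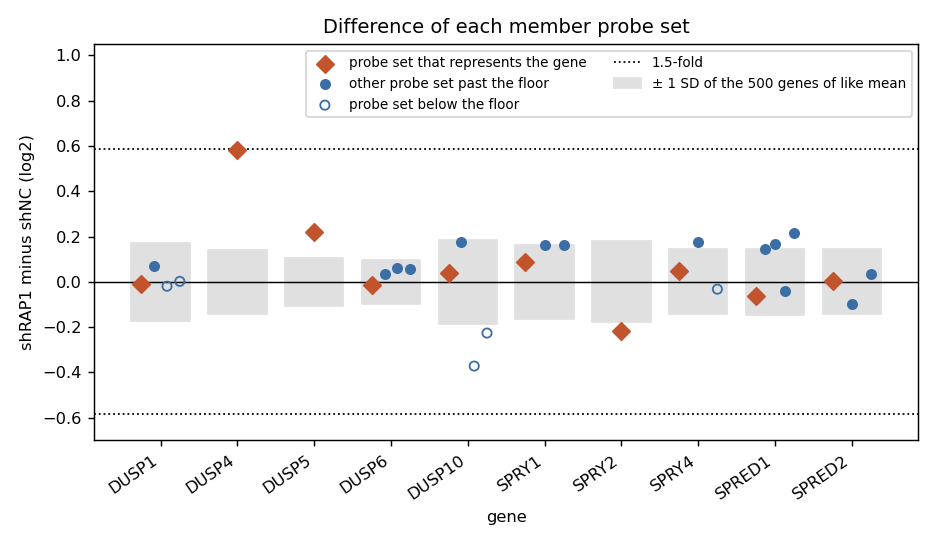
Difference between the shRAP1 and shNC arrays on the log2 scale (y axis) for each probe set of each gene (x axis). Diamonds stand for the gene, other filled points also passed the floor, open points did not, grey bars show ± 1 SD of the 500 genes of like mean and dotted lines mark 1.5-fold. Only the diamonds of DUSP4 (0.58), DUSP5 (0.22) and SPRY2 (−0.22) lie outside their grey bars.

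The Sprouty genes differed in sign. SPRY2, a docking protein for the ubiquitin ligase CBL that restrains signalling from FGF receptors, read 133 in shNC and 115 in shRAP1. It was the gene with the lowest difference of the 10, at −0.22 or 86.1% of the control. That was 1.20 times the SD of genes of like mean in size, and 6.26% of all genes had a lower difference. SPRY2 thus went opposite to DUSP4 and DUSP5, though at a low intensity, where the SD of genes of like mean was 0.18.

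SPRY1, which dampens RET and FGF receptor signalling, had 3 probe sets past the floor and all were higher. The brightest read 156 in shNC and 166 in shRAP1, a difference of 0.088. The other 2 held identical values on both arrays, 75.7 and 84.9 (0.16), and count as 1 measurement. Their shNC value lay below the floor. The gene's difference was 0.54 times the SD of genes of like mean, and 29.1% of all genes had a higher one.

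SPRY4, an inhibitor of RAS activation by receptors that is induced by ERK, read 890.3 in shNC and 919 in shRAP1 on its brightest probe set, a difference of 0.046. A dimmer one read 79.7 and 89.9 (0.17), and the third, at 17.3 and 16.9 (−0.032), lay below the floor. Both that passed the floor have names ending in _s_at. They were higher by 0.32 times the SD of genes of like mean for the brightest.

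SPRED1 brings the RAS inactivator neurofibromin, the product of NF1, to the membrane. Among probe sets past the floor, those of SPRED1 had the widest span of the 10 genes. The brightest, an _s_at probe set, was lower, at 690.2 in shNC and 660.4 in shRAP1 (−0.064). The next 2 were higher, at 447 and 493 (0.14) and at 363 and 407 (0.17). The last 2 differed in sign, at 150.5 and 147 (−0.038) and at 83.7 and 97.2 (0.22). The 5 differences thus spanned 0.28, against a median span of 0.13 over all genes that several probe sets past the floor measured, and the sign of SPRED1 depends on the probe set taken.

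SPRED2, its paralogue with the same role, stayed close to 0. Its brightest probe set read 1480.0 in shNC and 1485 in shRAP1, a difference of 0.0047. The others read 193 and 180.4 (−0.099) and 105 and 107 (0.033). All 3 differences were smaller than the SD of genes of like mean, 0.14.

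Of the 24 probe sets past the floor, 18 stood higher and 6 lower, and their median was 0.058. Of the 18, 3 (a DUSP10 probe set and the identical SPRY1 pair) passed the floor only through the shRAP1 array, where they were higher. With both arrays required to pass, 15 stood higher and 6 lower, against 49% higher of all such probe sets on the array. Over all 23141 probe sets past the floor with a single gene symbol, 49.4% stood higher and 50.6% lower, and the median was −0.0017. Probe sets of a gene share its RNA and are not replicates, so the larger number of higher ones is not a test. Of the 7 genes with more than 1 such probe set, 4 (DUSP1, DUSP6, SPRED1 and SPRED2) had probe sets of both signs, against 39.8% of such genes on the array. Judged by the spread of genes of like mean, 7 of the 10 lay within 1 SD, and so did 70.7% of all genes.

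**Figure D3:**
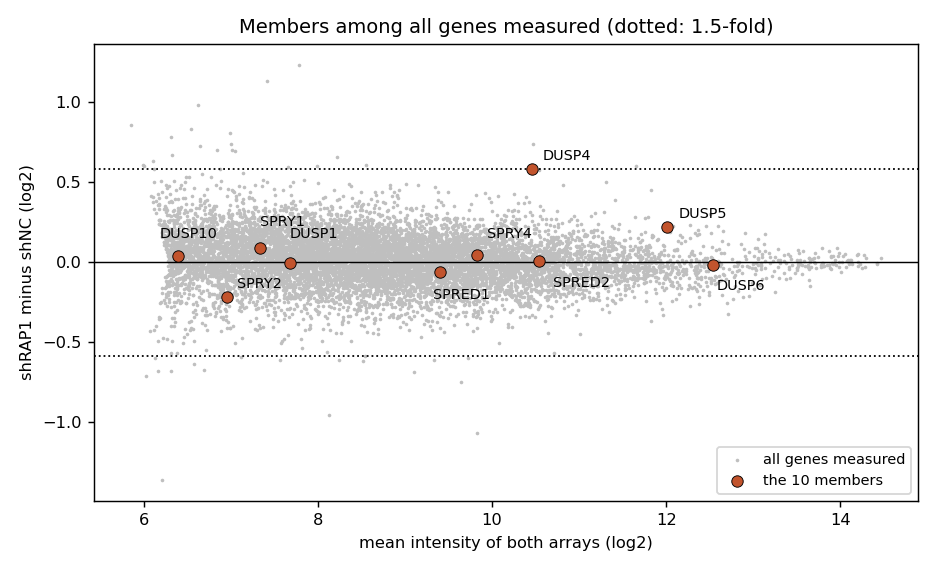
Difference between the arrays (y axis, log2) against the mean intensity of both arrays (x axis, log2) for all 10437 genes in grey, with the 10 genes in colour and dotted lines at 1.5-fold. DUSP4 lies at the upper edge of the cloud, DUSP5 at the edge for genes of its intensity, and the other 8 within it.

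The rest of the pathway was read from lists of genes that act on the 10 or beside them. Each list is to be read beside all genes measured, of which 53.2% were higher, with a median of 0.010. Of the other MAP kinase phosphatase genes, 4 of 7 were measured, 3 higher and 1 lower, and their median was 0.13. DUSP2, a nuclear phosphatase induced by mitogens, read 154 in shNC and 181 in shRAP1 (0.23). DUSP16, which prefers JNK, differed by 0.14 and DUSP8, with a like preference, by 0.13. DUSP9, a close relative of DUSP6, had probe sets at −0.17 and 0.22. DUSP7, PTPN7 and PTPRR lay below the floor, as did the remaining Sprouty and SPRED genes on the array, SPRY3 and SPRED3.

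Of 13 partners and regulators of the Sprouty and SPRED proteins, 12 were measured, 8 higher and 4 lower, and their median was 0.060. The largest differences by brightest probe set were those of CBLB, a ubiquitin ligase of the CBL family (0.24), NEDD4, a ubiquitin ligase that targets Sprouty (0.23, with 3 probe sets between 0.23 and 0.34), and MKNK1, a kinase downstream of ERK (0.23, with 3 between −0.037 and 0.23). Dimmer probe sets went further for CBL, with 3 between 0.15 and 0.47, and PPP2CA, with 3 between −0.38 and −0.032. Both were named after their values were seen. NF1, named here for its role with SPRED after its values were seen, was dim, with 3 probe sets between −0.12 and 0.18.

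In the RAS-ERK list 16 of 23 genes were measured, 7 higher and 9 lower, and their median was −0.0063. Of these 16, 10 lay within 0.1 of 0, against 52.3% of all genes. A further 6 had no probe set with a single symbol in the annotation used and were not analysed here. RPS6KA2, a kinase activated by ERK, had probe sets at 0.28 and −0.16. RPS6KA3, named after its values were seen, had −0.013 on its brightest probe set and 0.41 on the other. SOS2, a RAS exchange factor, differed by −0.28, and GAB1, an adaptor of growth factor receptors, by 0.23, its shNC value being under the floor. In the JNK and p38 list 13 of 16 were measured, 10 higher and 3 lower, and their median was 0.023, near the 0.010 of all genes. The largest differences by brightest probe set were those of the upstream kinases MAP3K5 (0.19), MAP3K4 (0.13) and MAP3K7 (0.11, with 7 probe sets between −0.047 and 0.14). MAP2K4, named after its values were seen, had 3 probe sets between −0.22 and −0.026.

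The ERK list held genes transcribed in response to ERK and also the transcription factor genes ELK1, ELK3, ELK4 and SRF. Its counts and median are therefore not those of ERK-induced transcripts alone. Of its 20 genes 19 were measured, with 12 higher, 7 lower and a median of 0.11. The immediate early transcription factor EGR1 differed by 0.50, its 6 probe sets all being higher, between 0.37 and 0.54. The AP-1 subunit gene FOSL1 differed by 0.34, again with all 6 higher, between 0.076 and 0.37. Without _x_at and _s_at probe sets FOSL1 stood at 0.076, which was then the median of the list. The cyclin gene CCND1 differed by −0.33 with all 4 lower, between −0.37 and −0.067.

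Of 15 other feedback inhibitors of receptor signalling, 12 were measured, 7 higher and 5 lower, and their median was 0.035. IL17RD, an inhibitor of FGF signalling at the membrane, read 322 in shNC and 414 in shRAP1 (0.36) on the 1 probe set past the floor. TRIB1, a pseudokinase that binds MEK1, differed by 0.30 with both probe sets higher, and SOCS4, an adaptor that promotes breakdown of the EGF receptor, by −0.27. None of the genes in these lists reached 1.5-fold by its brightest probe set, and by that measure DUSP4 had the largest difference among them and the 10. Relative to the SD of genes of like mean, EGR1 was larger, at 4.39 times that SD against 4.09 for DUSP4. Dimmer probe sets of FOS (0.69) and PHLDA1 (−0.61) were past 1.5-fold.

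**Figure D4:**
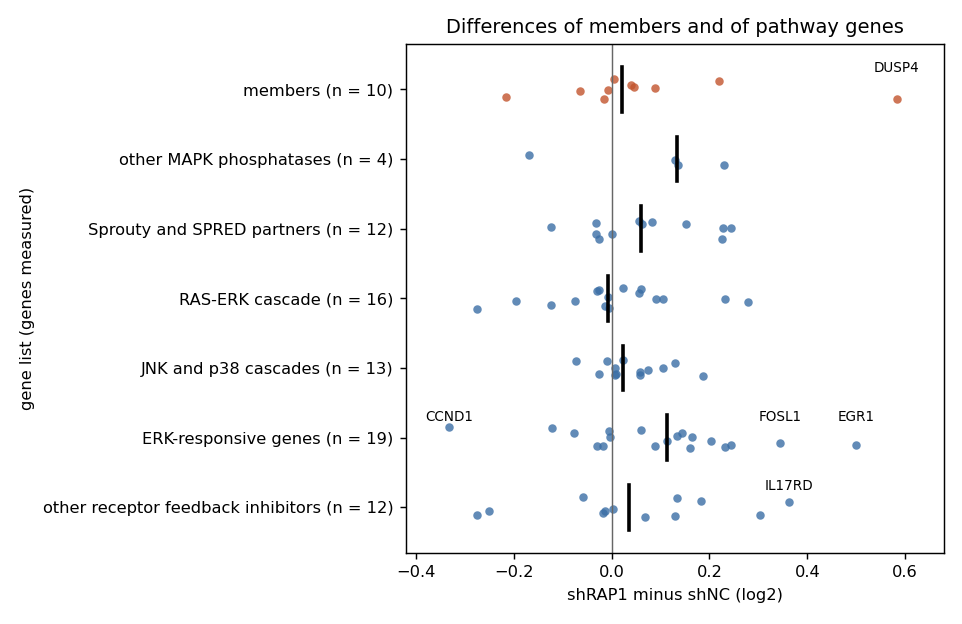
Difference between the arrays on the log2 scale (x axis) of each measured gene in the 10 and in 6 lists of the pathway (y axis), with a black bar at the median of each list. Names mark genes past 0.32 in size, which were DUSP4, EGR1, FOSL1 and IL17RD upward and CCND1 downward.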

How the data were processed

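RNA of 2 HCT116 cultures, 1 per group, was labelled as biotin cRNA by a method that starts at the 3′ end, per the labels' protocols. The authors deposited probe set intensity values, and the only tool in the submitters' processing notes is RMA. Its version is not given in the sources used here. RMA equalises the arrays' distributions, so a difference is relative to the other genes. The scale was read as linear from the values, which reach 25726 on both arrays, so log2 was taken with no pseudocount (the plan had assumed log2 values). With 1 array per group no test was possible, and precision is limited by there being only 2 arrays.

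Probe sets were named from the platform annotation: of 49293 without controls, 44988 carried 1 symbol, 1832 several and 2473 none, and only the first were used. Of each list, the 3 largest differences were named, and all genes of lists under 8. The 10 genes and the lists were chosen with earlier results of these data known. Computation used Python 3.11.15, numpy 2.4.6, pandas 2.3.3, statsmodels 0.14.6 and matplotlib 3.10.9 and was tested on simulated data. Alternatives changed the probe set rule, floor, probe sets admitted, pseudocount, centring and size counted.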

Additional observations from a re-analysis of the deposited data

How the results depend on the processing

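Each difference of the 10 genes was recomputed with the median of a gene's probe sets, a floor at the 75th percentile or none, without the less specific _x_at and _s_at probe sets, with a pseudocount of 16 and with a lowess trend removed. DUSP4 stayed between 0.58 and 0.60, DUSP5 between 0.22 and 0.24 and SPRY2 between −0.26 and −0.19. The count of the 10 genes at least 1.5-fold higher (0) was 1 after the lowess trend was removed, where DUSP4 reached 1.51-fold and 0.182% of all genes were past this size, and 1 at the smaller size of 0.32 on the log2 scale. Of 55 values 6 changed sign, all of DUSP1, DUSP6, DUSP10 and SPRED1. SPRED1 was at 0.14 both with the median of its probe sets and without those less specific ones. The median of the 10 genes was 0.11 with the median of a gene's probe sets (0.0058 for all genes) and ran from 0.012 to 0.039 under the other settings. The 0.11 includes probe sets of DUSP10 and SPRY1 that passed the floor only through the shRAP1 array. Of 41 recomputed medians 1 changed sign, that of the RAS-ERK list. The higher floor left DUSP1, DUSP10, SPRY1 and SPRY2 without a value, and leaving out _x_at and _s_at probe sets left SPRY4 without one. No paired analysis was possible because each group had 1 array. Dim probe sets limit DUSP10, SPRY1 and SPRY2 most.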

Other observations

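Among the genes of the ERK list, some differed in the same direction on every probe set past the floor (named after their values were seen). Probe sets of both signs were found in 39.8% of all genes with more than 1 such probe set, so a shared direction was the usual case. FOS was higher on 4 of 4, between 0.20 and 0.69, KLF6 on 3 of 3, between 0.16 and 0.23, and ELK3 on 2 of 2, at 0.23 and 0.38. PHLDA1 was lower on 4 of 4, between −0.61 and −0.077, and ETV1 on 3 of 3, between −0.18 and −0.036. ELK1 was also lower on 3 of 3, between −0.27 and −0.0030. ETV4, ETV5 and EPHA2, also named after their values were seen, are like DUSP6 often used to gauge ERK output. They stood at 0.088, −0.031 and −0.017 on their brightest probe sets. Other genes lay further from 0 in both directions: EPHA4 (0.17) and CCND1 (−0.33) of the same list, and DUSP4 (0.58) and SPRY2 (−0.22) of the 10. These few genes therefore do not stand for the list. ETV4 was higher on 2 of 2 probe sets, and the 4 of ETV5 lay between −0.15 and 0.0021. Of the 19 measured genes of the ERK list, 7 lay within 0.1 of 0, against 52.3% of all genes.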
